A study of Zea mays with 6 samples.

Results

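Aquaporins are channel proteins that let water, and in some members small solutes, cross a membrane. The results describe the transcripts of 4 maize aquaporin genes, *ZmTIP1;1*, *ZmTIP3-1*, *ZmPIP2:2* and *ZmSIP1-2*, out of 44303 genes measured by RNA-seq in the filling endosperm, where the kernel stores its starch and most of its protein. They are the 4 genes that the study listed as water transporters among its highly and differentially expressed genes (hdEGs), a list chosen from 3 sets of endosperm transcriptomes of which these samples are one. The direction and size of each gene's change in these samples were therefore part of its choice and are not independent evidence.

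The mutant *zmnac128 zmnac130* lacks the function of ZmNAC128 and ZmNAC130, a pair of NAC-family transcription factors that act in grain filling. The knockout lines were made in the inbred KN5585. The *zmnac128 zmnac130* endosperms came from F2 offspring of a cross of that mutant with the inbred B73, and the wild-type endosperms were F2 siblings of the same kind of cross, so both groups carried mixed KN5585 and B73 genomes. RNA was taken at 16 days after pollination (16 DAP) from more than 3 endosperms, and no treatment is named. The labels do not say whether the replicates of a genotype came from separate plants, so the p-values measure only the spread between these samples.

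Each genotype had 3 columns of deposited FPKM values (fragment counts scaled to transcript length and library size). In both genotypes replicate 3 was equal to replicate 1 in all 44303 genes. The 2 identical columns were counted as 1 sample, and this left 2 libraries of *zmnac128 zmnac130* and 2 of the wild type. The study's supplementary tables list replicate 3 of each genotype as a library of its own, so the deposited column may not be the one intended, and that library is not analysed here. The steps between FPKM values gave 29312397 to 30696032 reads in genes per *zmnac128 zmnac130* library and 26317317 to 28478576 per wild-type library. Every one of the 33589 genes detected gave whole reads within a tolerance of 0.002 reads. The length of each gene was chosen to make this so, which makes it a weak check for genes detected in few libraries. Of the 60 lowest genes used to set a library's total, 49 to 52 gave a whole length at that total. The recovered reads came to 98.4% to 98.6% of the totals. Whether a read or a pair of reads was counted was not tested. The 7 zein genes identified encode storage proteins of starchy endosperm. They summed to 20579 and 15173 FPKM in *zmnac128 zmnac130* against 57564 and 56629 FPKM in the wild type, so they were abundant in every library. All 7 were found among the hdEGs, chosen for their change on these samples among others. Their lower level in the mutant is therefore not independent evidence, and zeins outside that list were not looked at. No table used here links *ZmNAC128* or *ZmNAC130* to an ID, and the labels were not checked against the mutated genes.

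Plant aquaporins fall into several families. Tonoplast intrinsic proteins (TIPs) sit mainly in the membrane of the vacuole, plasma membrane intrinsic proteins (PIPs) at the cell surface, and small basic intrinsic proteins (SIPs), in Arabidopsis, in the endoplasmic reticulum (ER). TIP1 members are typical of the large vacuoles of growing cells, whereas TIP3 members are typical of protein storage vacuoles in maturing seeds and, in Arabidopsis, have also been seen at the plasma membrane. PIP2 members are efficient water channels when expressed in frog oocytes. Membranes below are assigned by what is known of each family, since RNA-seq does not locate the proteins.

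All 4 aquaporins differed between the genotypes, with one tonoplast channel and the ER channel higher in *zmnac128 zmnac130* and the other tonoplast channel and the plasma membrane channel lower. *ZmTIP1;1* and *ZmSIP1-2* were higher in *zmnac128 zmnac130*, by 2.92-fold and 2.86-fold in mean FPKM. *ZmPIP2:2* and *ZmTIP3-1* were lower in the mutant, with wild-type means 2.57 and 3.65 times the mutant means. Together the first pair rose by 85.6 FPKM and the second pair fell by 87.6 FPKM, so the summed level of the 4 genes was 176 ± 0.971 FPKM in *zmnac128 zmnac130* and 178 ± 19.0 FPKM in the wild type (SD, n = 2 each).

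Expression was compared with limma, a linear model fitted to all genes, on the scale of log2(FPKM + 1). The 19082 genes whose FPKM averaged 1 or more were tested, and all 4 aquaporins were among them. A gene was called when its log2 fold change was above 1 in size and its Benjamini-Hochberg adjusted p was below 0.05. By this rule all 4 aquaporins were called, beside 13.6% of all genes tested. *ZmTIP1;1* and *ZmSIP1-2* were called higher, as were 6.43% of genes, and *ZmPIP2:2* and *ZmTIP3-1* were called lower, as were 7.18% of genes. Both mutant libraries lay beyond both wild-type libraries in all 4 aquaporins. This held in 75.6% of genes tested (38.4% higher and 37.2% lower in the mutant), so with 2 libraries per genotype a lack of overlap says little.

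*ZmTIP1;1* (Zm00001eb003730) encodes a vacuolar water channel and lies on chromosome 1 at 10086567 to 10088583, as annotated by RefSeq on the assembly Zm-B73-REFERENCE-NAM-5.0. Its expression was 72.1 and 82.2 FPKM in the *zmnac128 zmnac130* libraries, against 27.9 and 24.9 FPKM in the wild-type libraries. The lowest mutant library was 2.58 times the highest wild-type library. These values stood for 2713 and 2954 reads in the mutant, against 975 and 803 reads in the wild type. By level, *ZmTIP1;1* ranked 1071 and 1011 among all genes in the mutant libraries, against 3098 and 3647 in the wild-type libraries. Its log2 fold change came to 1.51 (standard error 0.11, 95% confidence interval 1.25 to 1.77, adjusted p = 2.70e-04 from limma). This was the largest rise among the 4 aquaporins, although its interval overlapped that of *ZmSIP1-2*, and the difference between them was not tested. Of all genes tested, 2.93% rose as far or farther.

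*ZmTIP3-1* (Zm00001eb221090) encodes the other tonoplast channel, of the seed-specific TIP3 type, and lies on chromosome 5 at 26527062 to 26528165. It was measured at 13.8 and 16.1 FPKM in *zmnac128 zmnac130*, against 43.2 and 65.7 FPKM in the wild type. The mutant libraries were alike, while the wild-type libraries stood apart from each other by 1.52-fold, and even the lower of them was well above both mutant libraries. The reads behind these values were 534 and 593 in the mutant, against 1549 and 2178 in the wild type. A gap as large as that between the wild-type libraries was seen in only 0.849% of the 2590 genes within 2-fold of its wild-type level, and the counting error of the reads was 2.54% and 2.14%. In the other 3 aquaporins the wild-type libraries differed by 1.07-fold to 1.12-fold, and the mutant libraries of all 4 differed by 1.12-fold to 1.16-fold. The log2 fold change of *ZmTIP3-1* was -1.77 (standard error 0.20, 95% confidence interval -2.26 to -1.28, adjusted p = 0.00126 from limma). Its standard error was the largest of the 4 aquaporins. Without the filter on low values its call was lost, with an adjusted p of 0.0774 from limma at the same log2 fold change.

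*ZmPIP2:2* (Zm00001eb096680), the plasma membrane channel, lies on chromosome 2 at 173064245 to 173067554. Its expression was 32.3 and 28.8 FPKM in *zmnac128 zmnac130*, against 74.3 and 82.9 FPKM in the wild type. It was the most highly expressed of the 4 aquaporins in the wild type, where it ranked 994 and 855 among all genes, while in the mutant it ranked 2797 and 3281. The libraries held 1486 and 1269 of its reads in the mutant, against 3174 and 3276 in the wild type, and each mutant library was at 0.348 to 0.434 of the level of a wild-type library. The log2 fold change was -1.34 (standard error 0.10, 95% confidence interval -1.59 to -1.08, adjusted p = 3.42e-04 from limma). A fall as large or larger was found in 4.66% of all genes tested, so *ZmPIP2:2* changed the least of the 4 aquaporins relative to other genes.

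*ZmSIP1-2* (Zm00001eb349840), the ER channel, has the longest gene of the 4, from 109600466 to 109605073 on chromosome 8. It was expressed at 57.5 and 49.9 FPKM in *zmnac128 zmnac130*, against 19.4 and 18.2 FPKM in the wild type. The wild-type libraries were within 1.07-fold of each other, and the lower mutant library was 2.57 times the higher wild-type library. It was the lowest of the 4 aquaporins in the wild type, with 1012 and 875 reads, and the second in level in the mutant, with 3229 and 2677 reads. The log2 fold change was 1.46 (standard error 0.10, 95% confidence interval 1.21 to 1.72, adjusted p = 2.72e-04 from limma). A rise as large or larger was found in 3.15% of all genes tested, and in 3.15% of the 3110 genes within 2-fold of its mutant level.

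**Figure D1:**
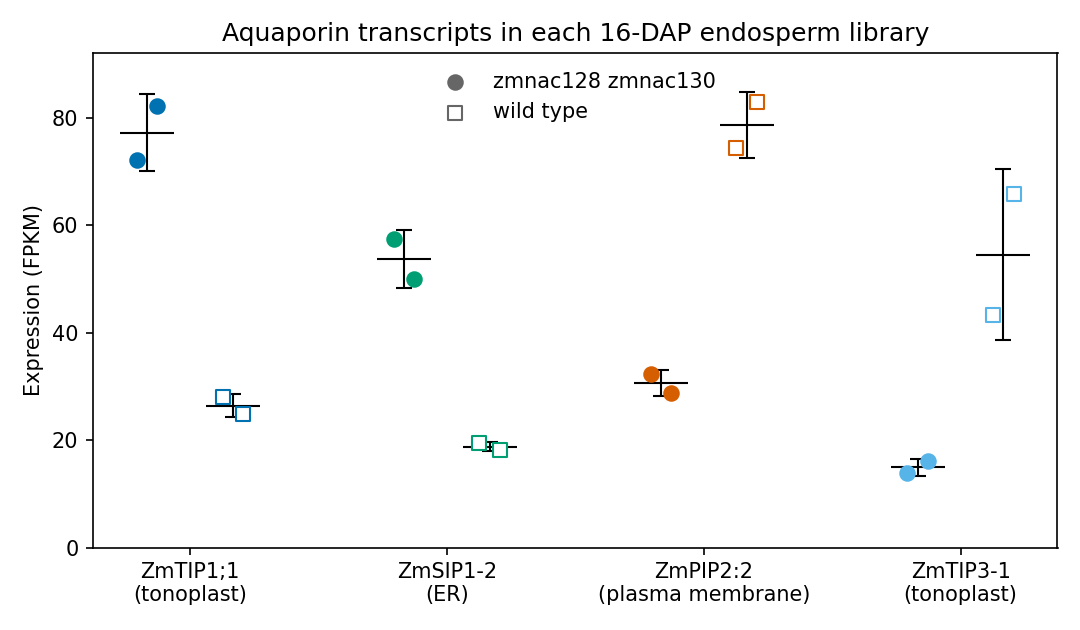
Expression of the 4 aquaporins in FPKM (vertical axis, linear from 0) in each library, with *zmnac128 zmnac130* as filled circles and the wild type as open squares. Horizontal bars are means and error bars SDs of 2 libraries. *ZmTIP1;1* and *ZmSIP1-2* were higher in the mutant, *ZmPIP2:2* and *ZmTIP3-1* were lower, and the wild-type libraries of *ZmTIP3-1* lay at 43.2 and 65.7 FPKM.

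The order of the 4 aquaporins by FPKM, a level per transcript length, was not the same in the 2 genotypes. In *zmnac128 zmnac130* it was *ZmTIP1;1* at 77.1 ± 7.15 FPKM, *ZmSIP1-2* at 53.7 ± 5.36 FPKM, *ZmPIP2:2* at 30.5 ± 2.41 FPKM and *ZmTIP3-1* at 14.9 ± 1.59 FPKM (SD, n = 2). In the wild type it was *ZmPIP2:2* at 78.6 ± 6.14 FPKM, *ZmTIP3-1* at 54.5 ± 15.9 FPKM, *ZmTIP1;1* at 26.4 ± 2.15 FPKM and *ZmSIP1-2* at 18.8 ± 0.884 FPKM (SD, n = 2). The pair at the top in the mutant was thus the pair at the bottom in the wild type. In both genotypes each gene lay above the next one in every library. The highest level was nearly the same, 77.1 FPKM for *ZmTIP1;1* in the mutant and 78.6 FPKM for *ZmPIP2:2* in the wild type, which were different genes of different membranes.

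Within the tonoplast, the 2 TIP isoforms changed places. The FPKM of *ZmTIP1;1* was 5.22 and 5.12 times that of *ZmTIP3-1* in the *zmnac128 zmnac130* libraries, against 0.646 and 0.379 times in the wild-type libraries. *ZmTIP3-1* therefore made up 16.1% and 16.4% of the tonoplast FPKM in the mutant, against 60.7% and 72.5% in the wild type. The mutant libraries agreed closely, and the spread of the wild-type ratio came mainly from *ZmTIP3-1*. The sum of both TIPs was 85.9 and 98.3 FPKM in *zmnac128 zmnac130*, against 71.1 and 90.6 FPKM in the wild type. These ranges overlapped. Those of each isoform did not, but this was also so in 75.6% of genes tested, and both isoforms were chosen for their change.

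By membrane, the share of the FPKM summed over the 4 genes moved away from the plasma membrane. The plasma membrane was represented only by *ZmPIP2:2* and the ER only by *ZmSIP1-2*, so the values by membrane are not totals of its aquaporins. *ZmPIP2:2* held 18.4% and 16.3% of the sum in *zmnac128 zmnac130*, against 45.1% and 43.3% in the wild type. The ER channel *ZmSIP1-2* held 32.7% and 28.2% in the mutant, against 11.8% and 9.48% in the wild type. The tonoplast share was 48.9% and 55.5% in the mutant, against 43.2% and 47.3% in the wild type. Its means of 52.2% ± 4.67 in the mutant and 45.2% ± 2.90 in the wild type (SD, n = 2 each) differed by about as much as the libraries of a genotype did. Tonoplast FPKM was 2.66 and 3.41 times plasma membrane FPKM in *zmnac128 zmnac130*, against 0.958 and 1.09 times in the wild type. Shares sum to a fixed total, so a rise in one membrane's share lowers the others, and no p-value is given for shares or sums over genes chosen for their change.

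The summed level of the 4 genes was 175.6 and 177.0 FPKM in *zmnac128 zmnac130*, against 164.8 and 191.7 FPKM in the wild type. Both mutant libraries lay between the wild-type libraries, and the ratio of the means was 0.989. The wild-type libraries differed mostly through *ZmTIP3-1*. Without that gene the other 3 aquaporins summed to 161.8 and 160.9 FPKM in the mutant, against 121.6 and 126.0 FPKM in the wild type. The ratio between means was 1.30. Leaving out a gene that fell raises this ratio by construction, and the value is given because *ZmTIP3-1* had the widest spread. The genes were chosen for their change and not as all aquaporins of the endosperm, so this sum is not the aquaporin total of the tissue.

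**Figure D2:**
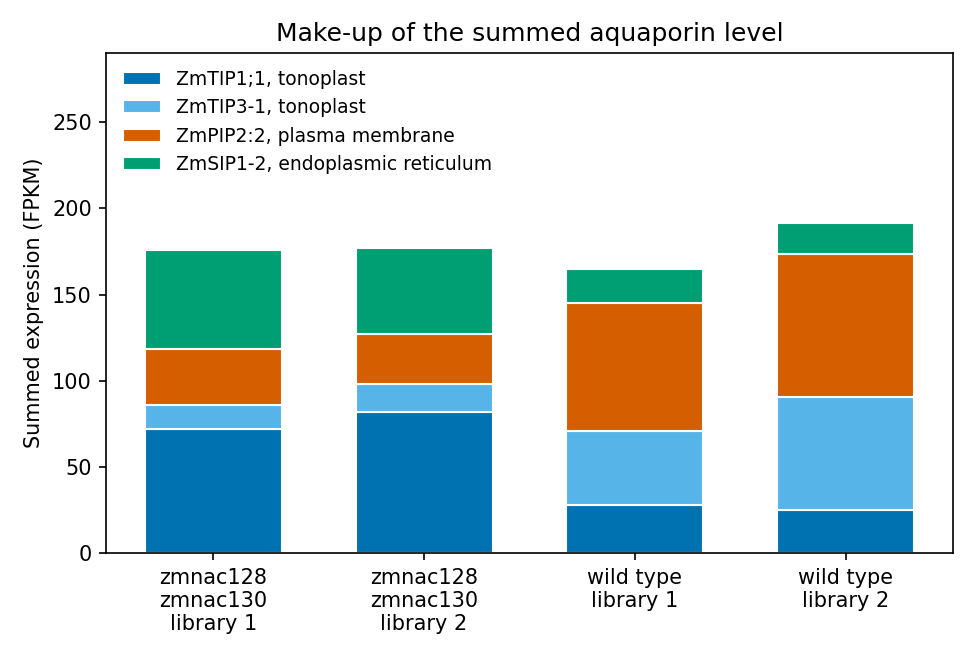
Summed expression of the 4 aquaporins in FPKM (vertical axis from 0) in each library, with the *zmnac128 zmnac130* libraries on the left and the wild-type libraries on the right, stacked by gene and membrane. The stacks reached 175.6 and 177.0 FPKM in the mutant and 164.8 and 191.7 FPKM in the wild type, and the plasma membrane part was 18.4% and 16.3% of the sum in the mutant and 45.1% and 43.3% in the wild type.

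Against the whole transcriptome, the 4 aquaporins lay outside the bulk of genes in both directions. The hdEGs were chosen for a log2 fold change above 1 in size, partly on these samples, so this place is not independent evidence. The log2 fold changes of all 19082 genes tested had a median of 0.0068, and 5th and 95th percentiles of -1.28 and 1.15. The 4 aquaporins ran from -1.77 to 1.51, with a median of 0.064 that reflects 2 genes on either side of 0. The 4 genes together made up 0.0304% and 0.0302% of all FPKM in *zmnac128 zmnac130*, against 0.0265% and 0.0314% in the wild type. In the endosperm as a bulk sample, fewer cells of a type and less RNA per cell cannot be told apart.

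**Figure D3:**
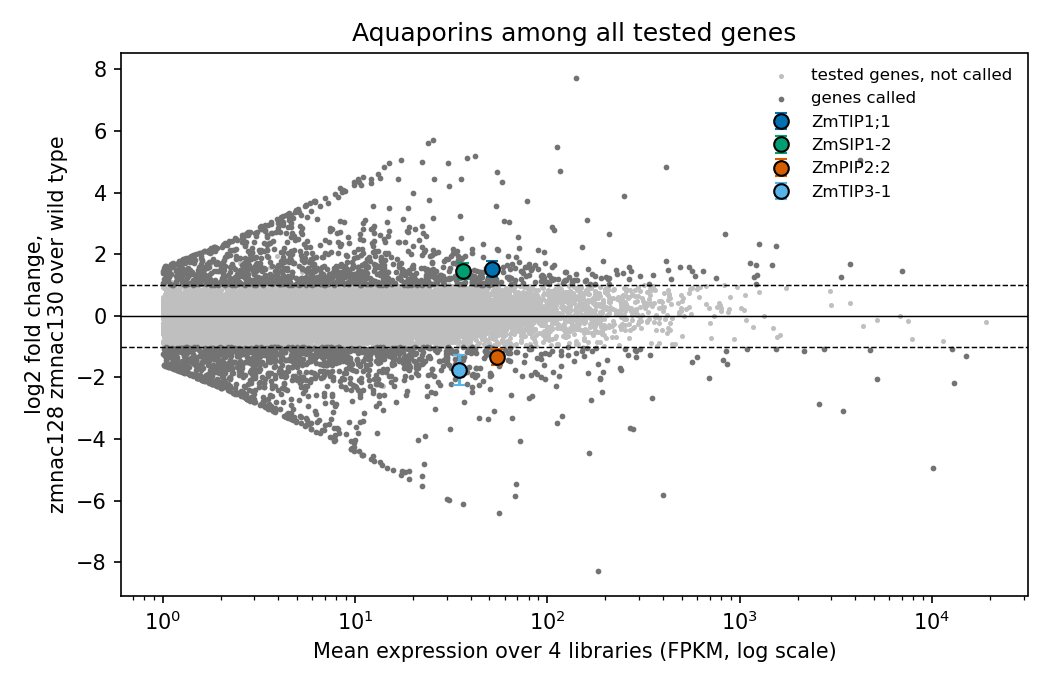
Log2 fold change of *zmnac128 zmnac130* over wild type (vertical axis) against mean expression over the 4 libraries in FPKM (horizontal axis, log scale) for the 19082 genes tested, with called genes in dark grey. Coloured points are the aquaporins with 95% confidence intervals from limma, 2 above the upper dashed line at 1 and 2 below the lower dashed line at -1.

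The reference annotation of RefSeq lists 31 maize genes with an aquaporin symbol. Only the 4 described here could be tied to an ID of the deposited tables, through the study's own gene list, and the other 27 are not analysed here. Members of the TIP1 and PIP2 subfamilies are alike in sequence, and how reads common to several genes were counted is not known here, so the values of *ZmTIP1;1* and *ZmPIP2:2* are uncertain to that extent. RefSeq also lists TIP3-2 and SIP1-1, and whether *ZmTIP3-1* and *ZmSIP1-2* share reads with them was not tested.

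The aquaporins belong to a table of 18 transporter genes in the study, all of which were called here, 9 higher and 9 lower, beside 6.43% of all genes tested called higher and 7.18% called lower. All but *ZmPHO1;2b* are hdEGs, chosen on these samples among others, so these counts are not independent evidence of a direction. The other 14 transporters ran from -3.45 to 4.99 in log2 fold change, 7 higher and 7 lower. By size of change the aquaporins stood in the middle, with *ZmTIP3-1* in place 7, *ZmTIP1;1* in place 9, *ZmSIP1-2* in place 10 and *ZmPIP2:2* in place 13 of 18. By mean FPKM they stood near the top, in places 2 (*ZmPIP2:2*), 3 (*ZmTIP1;1*), 5 (*ZmSIP1-2*) and 6 (*ZmTIP3-1*). They made up 37.8% and 37.3% of the FPKM of the 18 genes in *zmnac128 zmnac130*, against 36.1% and 37.3% in the wild type.

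**Figure D4:**
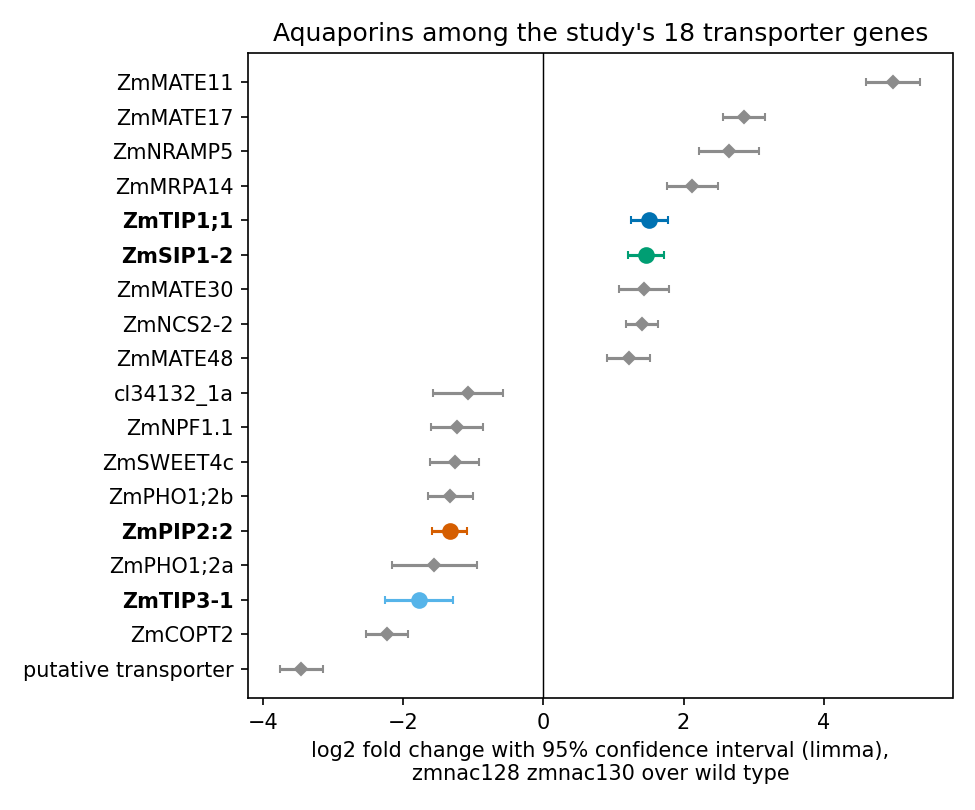
Log2 fold change of *zmnac128 zmnac130* over wild type with 95% confidence intervals from limma (horizontal axis) for the study's 18 transporter genes, with the aquaporins in colour and the other 14 in grey, sorted by value. *ZmTIP1;1* and *ZmSIP1-2* stood among the 9 genes that were higher, and *ZmPIP2:2* and *ZmTIP3-1* among the 9 that were lower.

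Genes of processes in which aquaporins take part were looked up by description, which reached only genes of the study's list of 243 hdEGs, so these counts are not independent evidence of a direction. One vacuolar gene was found, described as vacuolar iron transporter 1.2-like, which was called higher at 21.1 ± 2.26 FPKM in *zmnac128 zmnac130* and 7.88 ± 0.547 FPKM in the wild type (SD, n = 2 each). Of 4 genes of cell wall loosening, a process of growing cells, 3 were called higher, beside 6.43% of all genes tested. *Expansin-B4* was at 108 and 138 FPKM in the mutant, against 42.0 and 32.7 FPKM in the wild type, a log2 fold change of 1.70. The genes of alpha-expansin 6 and xyloglucan endotransglucosylase/hydrolase 15 had log2 fold changes of 1.22 and 1.24, and beta-expansin 1a was not called at 0.58.

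Of genes of seed dehydration and oil bodies, 2 were found, again among the hdEGs, and both were called lower, beside 7.18% of all genes tested. A gene of a desiccation-related protein was at 6.60 and 7.83 FPKM in *zmnac128 zmnac130*, against 91.2 and 70.6 FPKM in the wild type, a log2 fold change of -3.31. A caleosin related gene, for a protein of the oil body surface, was at 17.0 and 15.6 FPKM in the mutant, against 56.1 and 64.5 FPKM in the wild type. Its log2 fold change of -1.83 was close to the -1.77 of *ZmTIP3-1*. Between the wild-type libraries the caleosin related gene was higher in the second, as *ZmTIP3-1* was, while the desiccation-related gene was higher in the first. Between the mutant libraries the caleosin related gene was higher in the first, while *ZmTIP3-1* and the desiccation-related gene were higher in the second. Caleosins, like TIP3 channels, are abundant in embryo and aleurone. The caleosin related gene was the only marker of those tissues that could be matched to an ID, so the part of embryo or aleurone RNA in the difference of *ZmTIP3-1* was not tested.

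The basal endosperm transfer layer takes up nutrients from the mother plant, and its matched markers were lower in the mutant, as *ZmPIP2:2* and *ZmTIP3-1* were. Both markers that could be matched, *betl3* and a gene with the RefSeq synonym *tcrr-1* (Zm00001eb178220), were called lower, beside 7.18% of all genes tested. Their summed level was 55.8 and 39.0 FPKM in *zmnac128 zmnac130*, against 164 and 195 FPKM in the wild type, with the higher value in the wild-type library that was also higher in *ZmTIP3-1* and *ZmPIP2:2*. Between the mutant libraries the marker sum was higher in the first, as *ZmPIP2:2* was, while *ZmTIP3-1* was higher in the second. The 7 zeins of starchy endosperm were all called lower as well, beside the same 7.18%. Both marker lists hold only hdEGs of the study, and their part in the aquaporin differences was not tested.

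The genes with the most similar levels across the 4 libraries were sought among 137 genes with a description, by the distance of their log2(FPKM + 1) values. All 137 were hdEGs of the study, chosen for their change on these samples among others, so a likeness in change was partly preselected. For *ZmTIP3-1* the nearest was the caleosin related gene, at a distance of 0.466, ahead of a gene described as nuclear transcription factor Y subunit A-3, at 0.659. For *ZmTIP1;1* they were the mitochondrial chaperonin CPN60-1, at 0.449, and clathrin heavy chain 1, a coat protein of membrane vesicles, at 0.582. For *ZmPIP2:2* they were an RNA-binding protein, at 0.231, and aspartic proteinase Asp1, at 0.235. For *ZmSIP1-2* they were phosphoenolpyruvate carboxylase 3, at 0.241, and putative nucleolar protein 5-1, at 0.475. Phosphoenolpyruvate carboxylase 3 was the nearest of all genes tested to *ZmSIP1-2*. For *ZmTIP1;1*, *ZmTIP3-1* and *ZmPIP2:2*, 12, 6 and 2 tested genes outside the 137 lay nearer than the first one named. Descriptions of genes outside the hdEGs were not looked up. With 4 libraries in 2 genotypes, such a likeness is mostly a likeness of the level in each genotype.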

How the data were processed

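RNA-seq libraries from 16-DAP *zmnac128 zmnac130* endosperm and from that of wild-type siblings were analysed. The authors deposited FPKM values of 44303 genes, each library scaled to its own total. HISAT2 (named in the submitters' processing notes) mapped the paired reads to B73. Its version and the counting program are not given in the sources used here. For their own tests the authors used DESeq.

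Replicate 3, equal to replicate 1, was counted once. Genes averaging 1 FPKM or more were compared on log2(FPKM + 1) in R 4.3.3 with limma 3.58.1 (lmFit, trended eBayes and two-sided p), Benjamini-Hochberg adjusted over the 19082 genes kept. Adding 1 shrinks the fold changes of genes of low level. p-values rest on 2 residual and 4.04 prior degrees of freedom. Reads were recovered from the FPKM steps, and rest on 1 length fitted per gene. Sums, shares and distances were computed with Python 3.11.15 and carry no test.

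Alternatives were pseudocounts of 0.1 and 10, filters at 10 FPKM and none, TPM, scaling without zeins or by median of ratios, eBayes without trend, a replicate block, all 6 columns, limma voom on the recovered reads and leaving out each library.

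The tables pair no ID with a name. Names came from the study's gene list and, through its accessions, from RefSeq, which matched 175 of 243 genes. Coordinates are those of RefSeq. Protein and promoter sequences were not used here. Genes named are the 4 members, up to 4 genes with the largest change from each list, and the 2 described genes nearest to each member. The members and lists were chosen with earlier results of these data known.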

Additional observations from a re-analysis of the deposited data

How the results depend on the processing

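All 4 aquaporins kept their direction in the 15 alternatives and all were called in 14 of them. The exception was no filter on low values, where *ZmTIP3-1* had a log2 fold change of -1.77 and an adjusted p of 0.0774 from limma and the other 3 were called. Over the alternatives, log2 fold changes from limma ran from 1.26 to 1.60 for *ZmTIP1;1*, -2.07 to -1.35 for *ZmTIP3-1*, -1.41 to -1.13 for *ZmPIP2:2* and 1.14 to 1.56 for *ZmSIP1-2*. The number of genes called, 2598, became 612 with a pseudocount of 10, 1539 with no filter and 936 with a filter at 10 FPKM, where fewer genes were tested, and lay between 2153 and 2732 when each library was left out. Limma voom on the recovered reads called 3497 genes, 4 aquaporins among them. The differences between replicates 1 and 2 of the genotypes had a correlation of -0.078 over genes, so no common effect of the replicate number was seen. Whether samples shared a plant or a batch cannot be told from this value. With the replicate block 2632 genes and all 4 aquaporins were called. The ratio of summed FPKM ran from 0.920 to 1.07 when each library was left out. It was 1.05 with TPM, which moved the median log2 fold change of all genes tested to 0.079. With 2 libraries per genotype, the spread of a single gene is poorly known, and that of *ZmTIP3-1* in the wild type limits every sum that holds it.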

Other observations

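Genes near the aquaporins in the order of gene IDs were looked at as well. This order followed the RefSeq start positions in 164 of 165 consecutive pairs of genes with known places. Those genes were only hdEGs matched to RefSeq and lay scattered over the chromosomes. The check thus covers the coarse order, and whether genes next to each other by ID are direct neighbours was not tested. Of the 80 tested genes in all, 10 on each side of each aquaporin, 12 were called, which is 15.0% beside 13.6% of all genes tested. The neighbours of *ZmTIP1;1* had a median log2 fold change of -0.060. The nearest tested genes before and after it by ID had -0.88 and -0.93, neither of them called, against 1.51 for *ZmTIP1;1* itself. The neighbours of *ZmTIP3-1*, *ZmPIP2:2* and *ZmSIP1-2* had medians of -0.0049, -0.11 and -0.091. The tested gene just before *ZmPIP2:2* by ID (Zm00001eb096640), picked out after its value was seen, was called higher, with a log2 fold change of 1.51. *ZmPIP2:2* itself was called lower at -1.34.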
